A study of Mus musculus with 10 samples.

Results

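Small nucleolar RNA host genes are genes whose introns carry small nucleolar RNAs, the guides that direct chemical modification of ribosomal and spliceosomal RNA. The 8 noncoding members described here are Gas5, Snhg1, Snhg3, Snhg5, Snhg6, Snhg7, Snhg8 and Snhg12. They were taken by symbol from 23924 genes in each of the study's gene tables. No cut on a measured value was used, but earlier results of these data were known when they were chosen. All 8 passed the filter on low values in both tables. The study sequenced RNA from pancreatic tumours grown in the pancreas of athymic nude mice. In the KrasT model there were 3 tumours without doxycycline (0 days) and 3 after doxycycline, and in the MycT model there were 2 and 2. Doxycycline was given in drinking water for 2 weeks (14 days) at 100 ug/ml with 2.5% sucrose, and the labels name no sucrose control. The series title places the tumours after treatment in the absence of oncogenic drivers. The labels do not spell out the transgenes, their promoters or whether a model is 1 clone, and they give no age for the mice. Each tumour has its own animal number, and athymic hosts lack mature T cells but keep other host cells.

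When a host gene is transcribed and spliced, the small nucleolar RNAs are trimmed out of the removed introns and join protein partners, while the exons form a spliced RNA. The spliced RNAs of many such genes begin with a run of C and T bases, a terminal oligopyrimidine tract, a feature shared with ribosomal protein messenger RNAs and tied to growth-dependent translation. Several of these RNAs, Gas5 the classic case, carry short reading frames, are loaded onto ribosomes and are then destroyed by nonsense-mediated decay. A level of a host RNA therefore reflects both transcription and decay, and does not measure the small nucleolar RNA made from its introns.

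Sequence around the transcription start was read for 7 of the 8 members from RefSeq windows of the GRCm38.p6 build; Snhg6 had no entry. It is shown because an opening pyrimidine run is a feature of many such genes. Each line gives the 40 bases before and the 20 bases from the start, 5′ to 3′ on the gene's strand. Capitals mark the longest unbroken run of C and T touching the 10 bases on either side of the start, and the letters TATAAA where they lie 16 to 40 bases before it. For Gas5 the downstream one of its 2 annotated starts is printed.
Gas5, chr1:161035126-161035185, plus strand: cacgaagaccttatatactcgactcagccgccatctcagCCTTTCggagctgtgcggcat
Snhg1, chr19:8723447-8723506, plus strand: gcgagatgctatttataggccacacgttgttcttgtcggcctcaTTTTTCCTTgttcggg
Snhg3, chr4:132353667-132353726, minus strand: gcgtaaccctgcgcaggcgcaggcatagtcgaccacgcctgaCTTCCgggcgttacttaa
Snhg5, chr9:88522878-88522937, minus strand: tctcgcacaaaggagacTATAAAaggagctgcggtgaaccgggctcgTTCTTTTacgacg
Snhg7, chr2:26640225-26640284, minus strand: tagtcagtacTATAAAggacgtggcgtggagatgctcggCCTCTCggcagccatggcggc
Snhg8, chr3:123508317-123508376, minus strand: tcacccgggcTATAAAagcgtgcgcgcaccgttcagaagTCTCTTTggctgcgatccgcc
Snhg12, chr4:132308638-132308697, plus strand: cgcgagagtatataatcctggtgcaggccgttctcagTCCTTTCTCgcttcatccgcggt

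The run was 9 bases in Snhg1 and Snhg12, 7 in Snhg5 and Snhg8, 6 in Snhg7 and at the printed Gas5 start, and 5 in Snhg3. At the other Gas5 start it was 3 bases. Counted from the first base of the annotated RNA, the run began at base 3 in Snhg3, 5 in Snhg1 and 8 in Snhg5. It therefore did not open the annotated RNA of these genes. In the other printed sequences the run spanned the start. Over all 32851 RefSeq start windows the median run was 4 bases, and 29.2% had a run of at least 6. TATAAA at 16 to 40 bases before the start, on the gene's strand, was found in Snhg5, Snhg7 and Snhg8, against 1.99% of all windows. CACGTG, the letters of the E-box that MYC and related factors can bind, was in none of the members' 300-base windows on either strand, against 7.15% of all windows. These matches describe letters in a window and say nothing of which factor acts there.

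Levels are given as FPKM, fragments scaled to gene length and library size, as the authors deposited them. A gene was tested on log2(FPKM + 1) with limma and counted as called when its p, adjusted by Benjamini-Hochberg over all genes of the table, was under 0.05. Untreated MycT values are given with replicate 2 first and the unnumbered replicate second. Nothing states that the KrasT and MycT tables were normalized together, so levels set across the tables carry that limit. The number of reads is unknown. Relative depth, estimated from rarely detected genes against the first library of each table, was 0.742 to 1.173 in KrasT and 0.629 to 1.0 in MycT. Summed FPKM per library was 789672 to 1018968 in untreated KrasT and 513949 to 569272 after doxycycline, and 1126800 and 1517332 in untreated MycT and 557227 and 546008 after doxycycline. The ribosomal RNA precursor row Rn45s stood at 17238.5 FPKM in KrasT doxycycline replicate 1 and at 20880 in MycT doxycycline replicate 2, and at no more than 2231 in the other 8 libraries. The mouse Myc row was 0.398 and 2.85 FPKM in untreated MycT tumours and 9.54 and 8.98 after doxycycline, so it does not check the MycT labels; the sources used here do not say whether the transgene is counted in that row.

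In MycT tumours all 8 host genes were lower in both doxycycline libraries than in both untreated libraries, by 3.94 to 12.7 times in group means; 32.8% of all tested genes were lower without overlap there. In KrasT tumours the picture was uneven: Snhg6 fell 6.88 times, Snhg3, Snhg5 and Snhg8 were also lower without overlap (4 of 8, against 23.0% of genes), and Gas5, Snhg1, Snhg7 and Snhg12 overlapped between groups. Snhg6 was the only one of the 8 called within either model's own fit, against 8.25% of genes called lower in KrasT and 0.039% called in either direction in MycT. Every MycT change had an unadjusted limma p under 0.05, as did 4284 of the 12834 genes tested there.

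**Figure D1:**
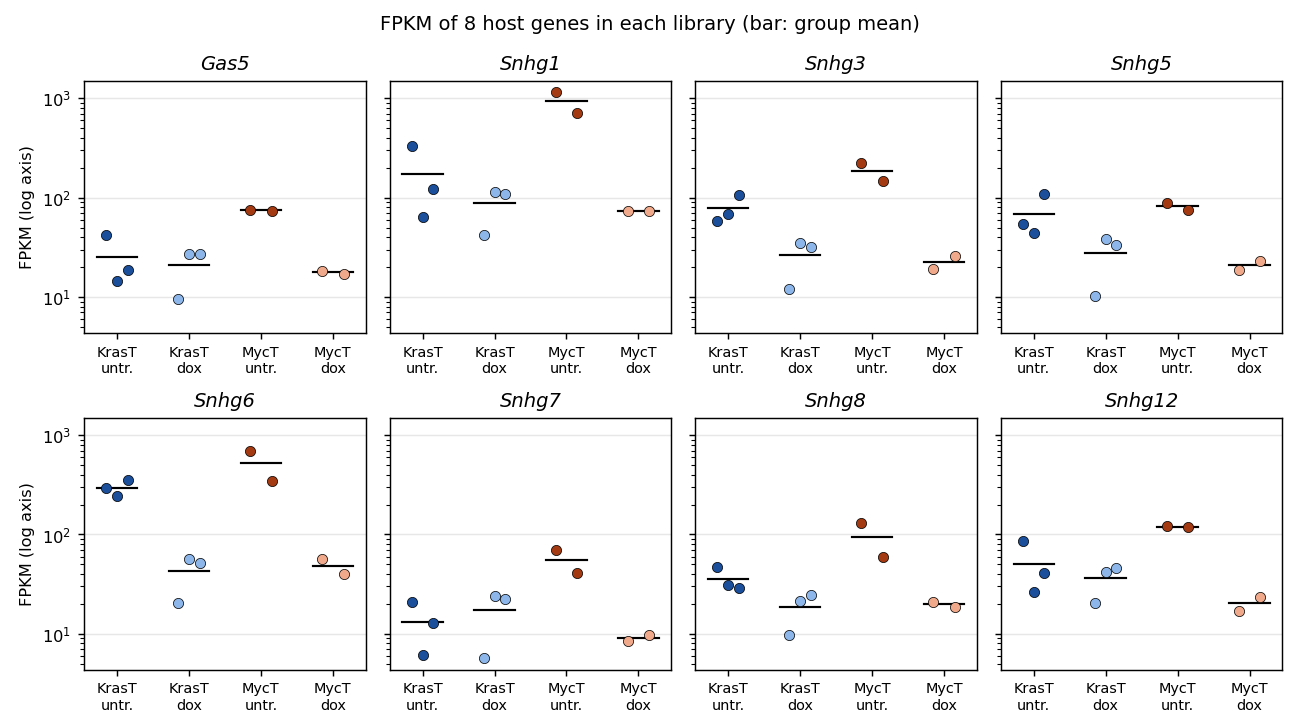
FPKM of each of the 8 host genes (log axis) in untreated and doxycycline KrasT and MycT libraries, 1 point per library, with a bar at the group mean. The untreated MycT mean is the highest for each gene, and KrasT doxycycline replicate 1, the leftmost point of its group, is the lowest of its group for each gene.

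Snhg1, first known as the host of U22, is a gene whose introns rather than exons were found to be its conserved product. In MycT tumours it stood at 717 FPKM in untreated replicate 2 and 1148 in the untreated replicate whose column carries no matching number, and at 73.9 and 73.3 after doxycycline. Both untreated libraries were far above both treated ones. The log2 change was -3.61 ± 0.37 (SE), the lowest of the 8, with a limma adjusted p of 0.0638. In KrasT tumours Snhg1 was 335.8, 63.5 and 122.4 FPKM in untreated replicates 1 to 3 and 42.0, 114.7 and 109.8 after doxycycline. The groups overlapped, with untreated replicate 2 below 2 of the 3 treated libraries. The KrasT log2 change was -0.76 ± 0.67 (SE), limma adjusted p = 0.462.

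Snhg6 hosts Snord87. In KrasT tumours it was 292.6, 242.7 and 352.2 FPKM in untreated replicates and 20.6, 56.9 and 51.5 after doxycycline. Every untreated library was above every treated one, and the untreated values lay close together (mean 295.8 ± 54.8, SD, n = 3). The log2 change was -2.86 ± 0.41 (SE), limma adjusted p = 0.0118. This was the 1 called change among the 8, against 8.25% of the 12696 KrasT genes called lower. The call was lost without untreated replicate 3 (-2.73, adjusted p = 0.0638) and without doxycycline replicate 3 (-3.05, 0.0542), where 113 and 120 of all genes were called in place of 2121, and held in the 4 other fits that left out 1 library. In MycT tumours Snhg6 was 347.8 and 689.0 FPKM untreated and 57.0 and 39.7 after doxycycline, a log2 change of -3.34 ± 0.47 (SE), limma adjusted p = 0.0638. Its gene overlaps Mcmdc2 on the opposite strand in GENCODE, and without strand-specific counting reads of the pair cannot be told apart.

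Snhg3 hosts the U17 pair Snora73a and Snora73b, which take part in cutting the ribosomal RNA precursor. It was 58.1, 69.2 and 107.4 FPKM in untreated KrasT replicates and 12.1, 35.2 and 31.7 after doxycycline. The groups did not overlap. The log2 change was -1.62 ± 0.45 (SE), limma adjusted p = 0.0528, and without untreated replicate 1 it passed the threshold (0.0335). In MycT tumours it was 145.8 and 225.7 FPKM untreated and 19.1 and 26.1 after doxycycline, a log2 change of -2.96 ± 0.39 (SE), limma adjusted p = 0.0638. Snhg3 shares its locus and strand with Rcc1 and overlaps Gm17300 on the other strand, so its reads may be split with these genes.

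Snhg5 carries small nucleolar RNAs that the tables do not list. Untreated KrasT replicates stood at 53.9, 43.9 and 108.5 FPKM and treated ones at 10.4, 38.9 and 33.4. The groups did not overlap, but the nearest libraries were 43.9 and 38.9, and the change of -1.37 ± 0.56 (SE) on the log2 scale was not called (limma adjusted p = 0.138). In MycT tumours it was 75.9 and 88.0 FPKM untreated and 18.6 and 23.0 after doxycycline, the smallest ratio of the 8 (3.94). The MycT log2 change was -1.93 ± 0.32 (SE), limma adjusted p = 0.0643.

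Snhg8 hosts Snora24. It was 46.5, 30.6 and 29.0 FPKM in untreated KrasT replicates and 9.82, 21.6 and 24.4 after doxycycline, without overlap, and the log2 change was -0.95 ± 0.39 (SE), limma adjusted p = 0.139. In MycT tumours the values were 59.4 and 130.2 FPKM untreated and 21.0 and 18.5 after doxycycline. The untreated pair differed more from each other than the treated pair, and the log2 change of -2.10 ± 0.47 (SE) had the highest limma adjusted p of the 8 MycT changes (0.0754).

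Gas5, named for its rise in growth-arrested cells, hosts several box C/D small nucleolar RNAs. In MycT tumours it was 73.6 and 75.7 FPKM untreated and 18.3 and 17.2 after doxycycline, with each pair within a few percent of its mean. The log2 change was -2.01 ± 0.30 (SE), limma adjusted p = 0.0638. In KrasT tumours it was 42.2, 14.5 and 18.9 FPKM untreated and 9.56, 27.2 and 27.1 after doxycycline. Each group had 1 library apart from its other members, and the change of -0.22 ± 0.53 (SE) on the log2 scale was not called (limma adjusted p = 0.802). Its sign turned to 0.25 without doxycycline replicate 1 and to 0.21 without untreated replicate 1. Gas5 overlaps Zbtb37 on the opposite strand.

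Snhg12, host of Snora16a, Snora44, Snora61 and Snord99, followed a similar course. It was 118.4 and 122.0 FPKM in untreated MycT libraries and 16.9 and 23.7 after doxycycline, a log2 change of -2.53 ± 0.33 (SE; limma, adjusted p = 0.0638). In KrasT tumours it was 85.4, 26.2 and 41.0 FPKM untreated and 20.6, 41.8 and 46.2 after doxycycline. The KrasT groups overlapped, the log2 change was -0.39 ± 0.50 (SE, limma adjusted p = 0.620), and it turned to 0.06 without untreated replicate 1.

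Snhg7 hosts Snora17 and Snora43. It was 41.3 and 70.5 FPKM in untreated MycT libraries and 8.52 and 9.80 after doxycycline, a log2 change of -2.44 ± 0.39 (SE; limma, adjusted p = 0.0638). In KrasT tumours it was 20.8, 6.15 and 12.8 FPKM untreated and 5.67, 23.8 and 22.2 after doxycycline. The 2 highest KrasT libraries were treated ones, and so was the lowest. Its KrasT log2 change of 0.28 ± 0.63 (SE, limma adjusted p = 0.788) was the only positive value of the 16, and it was below 0 without untreated replicate 2, doxycycline replicate 2 or doxycycline replicate 3.

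**Figure D2:**
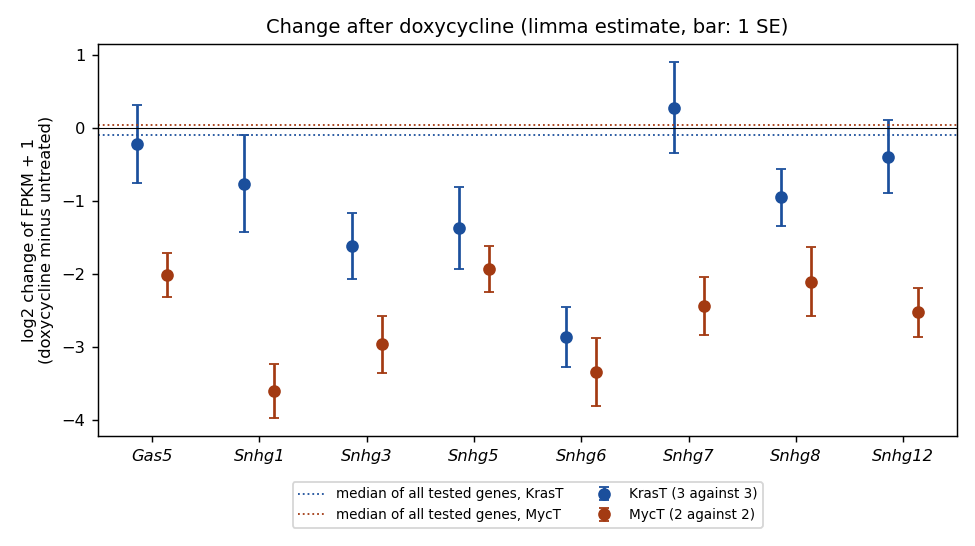
Log2 change of FPKM + 1 after doxycycline for each host gene (limma estimate, bars 1 SE) in KrasT (3 against 3 libraries) and MycT (2 against 2), with dotted lines at the median of all tested genes. MycT changes lie between -3.61 and -1.93, and KrasT changes between -2.86 and 0.28.

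Changes were negative for 8 of 8 members in MycT, against 48.4% of genes, and for 7 of 8 in KrasT, against 54.7%. Counted together, 8 of 8 members were lower without overlap in MycT tumours, against 32.8% of 12834 tested genes, and 4 of 8 in KrasT, against 23.0%. The median log2 change of the members was -2.48 in MycT, where the median of all genes was 0.04, and -0.86 in KrasT, where it was -0.10. Rescaled to TPM, the members' medians were -1.29 in MycT and -0.17 in KrasT, and with quantile normalization the KrasT median was -0.40. Without the library of high Rn45s in each model, the members' median was -2.64 in MycT, with doxycycline represented by 1 library assumed to vary like the untreated ones, and -0.43 in KrasT, where Snhg6 was still the 1 called gene (log2 change -2.41 ± 0.28, SE; limma, adjusted p = 0.0154). In the MycT table's own fit 0 of 8 were called, against 0.039% of all genes in either direction, with adjusted p between 0.0638 and 0.0754. Unadjusted p was under 0.05 for 8 of 8 members and for 4284 of 12834 genes. A joint fit of both tables, which takes 1 spread per gene for both models and can call too many genes where the models' spreads differ, called 7 of 8 lower in MycT (all but Snhg5, adjusted p = 0.0540), against 12.3% of genes, and Snhg6 and Snhg3 in KrasT, against 9.09%.

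The 2 models' changes were then compared with each other by the interaction term of the joint fit, MycT change minus KrasT change. None of the 8 differences was called at an adjusted p under 0.05, where 0.24% of 12073 genes were; 4 had an unadjusted p under 0.05, as did 19.9% of all genes. The differences with the lowest adjusted p were -2.72 ± 0.90 (SE) for Snhg7 (limma adjusted p = 0.148), -2.84 ± 0.95 for Snhg1 (0.150) and -2.13 ± 0.71 for Snhg12 (0.151). The fourth was Gas5, at -1.79 ± 0.74. Those 4 genes were the ones whose KrasT groups overlapped. For Snhg6 and Snhg5 the differences were -0.47 ± 0.67 and -0.56 ± 0.79, both with an adjusted p of 0.738. Without KrasT untreated replicate 1, which held the highest KrasT value of Gas5, Snhg1, Snhg8 and Snhg12, Snhg1 (adjusted p = 0.0245) and Snhg12 (0.0274) passed the threshold, in a fit that called 12.6% of all genes. Among the fits run, these changes were called different between the models only when that library was left out.

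Ordered by group mean, untreated MycT was the highest of the 4 groups for all 8 genes, a comparison across separately deposited tables. Its libraries lay above every library of the next group for 6 genes, and overlapped untreated KrasT for Snhg5 and Snhg6. The 2 lowest groups overlapped for all 8 genes, so their order is not resolved. After doxycycline Snhg1 averaged 88.8 ± 40.7 FPKM (SD, n = 3) in KrasT and 73.6 ± 0.431 (SD, n = 2) in MycT, Snhg6 averaged 43.0 ± 19.6 and 48.3 ± 12.2, Snhg7 averaged 17.2 and 9.16, and Snhg12 averaged 36.2 and 20.3.

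Within a library, levels may be compared between the genes because FPKM is per length. Snhg1 was the highest of the 8 in 8 of 10 libraries, and Snhg6 in KrasT untreated replicates 2 and 3. Snhg7 was the lowest in 9 of 10, with Snhg8 the lowest in KrasT doxycycline replicate 2. The 8 genes summed to 935, 497 and 792 FPKM in untreated KrasT and to 130.7, 360 and 346 after doxycycline. In MycT the sums were 1579 and 2549 untreated and 233 and 231 after doxycycline. Snhg6 supplied 31.3% to 48.9% of the sum in untreated KrasT libraries and 14.9% to 15.8% in treated ones, which did not overlap. In MycT its share was 22.0% and 27.0% untreated and 24.4% and 17.2% treated, which overlapped. Snhg1 supplied 35.9%, 12.8% and 15.5% in untreated KrasT libraries, 45.4% and 45.0% in untreated MycT libraries and between 31.7% and 32.1% in all 5 treated libraries of both models.

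**Figure D3:**
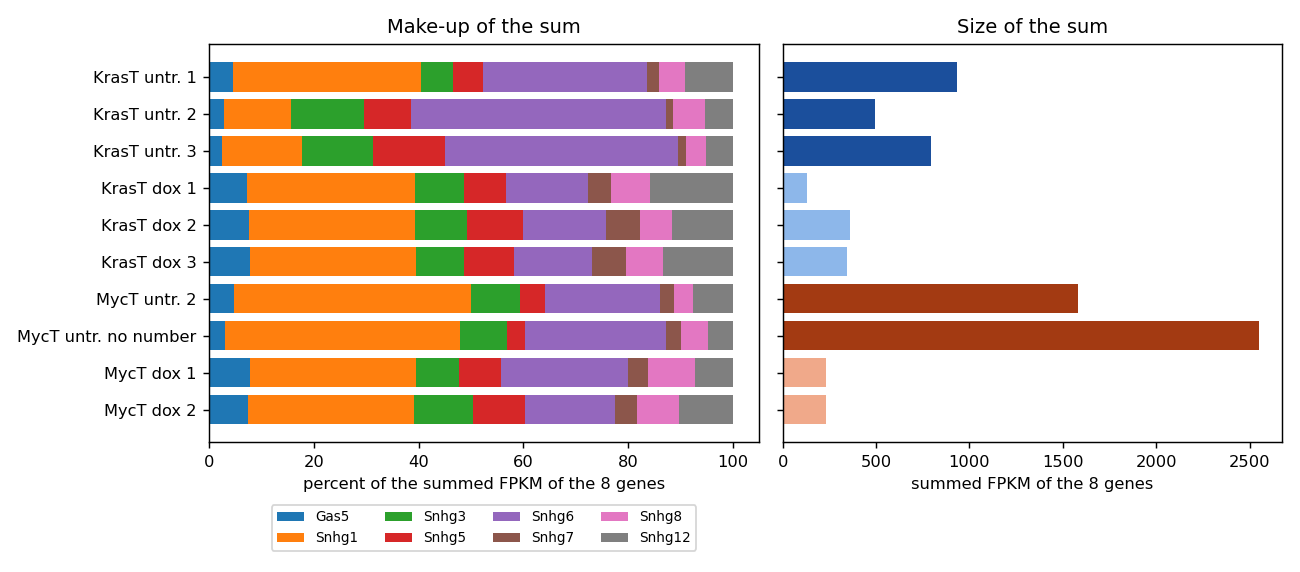
Percent of the summed FPKM of the 8 host genes that each supplies (left) and the sum itself in FPKM (right), 1 bar per library. Snhg6 makes up 31.3% to 48.9% of the sum in untreated KrasT libraries and 14.9% to 15.8% after doxycycline.

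Pearson r between the log2 profiles over the KrasT libraries is a description over 6 libraries that share depth and tissue make-up. Gas5, Snhg1, Snhg7 and Snhg12 had pairwise r of 0.76 to 0.99, and Snhg3, Snhg5 and Snhg6 had 0.88 to 0.96. Pairs across these genes ran from 0.10 (Snhg6 and Snhg7) to 0.62 (Snhg1 and Snhg5). Snhg8 had r of 0.80 to 0.87 with Snhg3, Snhg5 and Snhg6, of 0.76 to 0.82 with Gas5, Snhg1 and Snhg12, and of 0.47 with Snhg7. Over all 10 libraries the median r of the 28 pairs was 0.86, and the most alike pair was Snhg1 and Snhg12 (0.99). Among 12073 genes, those whose profile was most like the median of the members over the 10 libraries were Ssbp1 (0.982), Snrpg (0.982), Psmg4 (0.980), Cep57 (0.980) and Lsm3 (0.980).

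The small nucleolar RNA rows of the same tables were set beside the hosts. These RNAs are short, and standard messenger RNA libraries capture them poorly. Of 105 rows (36 box H/ACA and 69 box C/D), 24 were above 0 in any KrasT library and 32 in any MycT library, and in each model 4 of these were C/D. In MycT tumours 26 and 27 rows were above 0 in the untreated libraries and 11 and 10 after doxycycline, and the rows summed to 7931 and 14295 FPKM untreated and 2078 and 1582 treated. Neither measure overlapped between groups, and the exact two-sided permutation p of 0.3333 for each is the smallest that 2 against 2 allows. In KrasT tumours 12, 4 and 10 rows were above 0 untreated and 13, 11 and 13 after doxycycline (exact permutation p = 0.2), with sums of 458, 25.5 and 426 FPKM and 1043, 335 and 300 (exact permutation p = 0.6). The highest KrasT sum was in doxycycline replicate 1, the library with 17238.5 FPKM of Rn45s. In MycT the library with 20880 FPKM of Rn45s, doxycycline replicate 2, had the lowest sum.

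**Figure D4:**
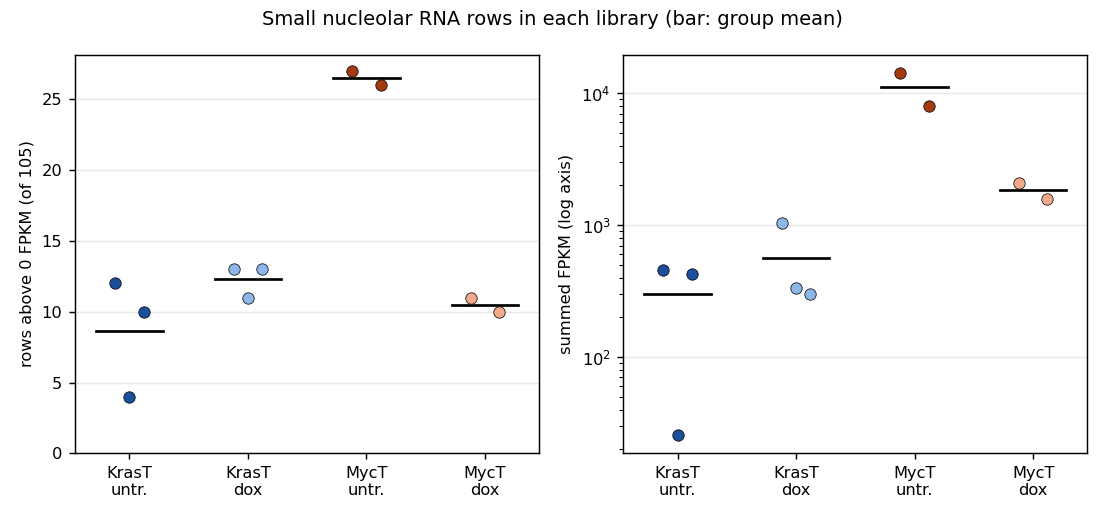
Number of small nucleolar RNA rows above 0 FPKM out of 105 (left) and their summed FPKM (right, log axis), 1 point per library with a bar at the group mean. In MycT both measures are lower in each doxycycline library than in each untreated one; the KrasT groups overlap in the sum and in the count.

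Of the small RNAs inside the members, 3 held enough values to follow, and their sequences from GENCODE on GRCm38 are shown for that reason. Capitals mark the D box CTGA of Snord22 and the ACA box of Snora17 and Snora43. In Snora17 and Snora43 they also mark the match to the H box form ANANNA nearest the middle of the RNA. Other matches overlap the marked one in Snora17, so its H box is not settled by these letters.
Snord22, in Snhg1, chr19:8725866-8725991, plus strand: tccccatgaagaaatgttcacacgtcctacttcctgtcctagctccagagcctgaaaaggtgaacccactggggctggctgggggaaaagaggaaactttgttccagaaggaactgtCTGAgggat
Snora17, in Snhg7, chr2:26639190-26639321, minus strand: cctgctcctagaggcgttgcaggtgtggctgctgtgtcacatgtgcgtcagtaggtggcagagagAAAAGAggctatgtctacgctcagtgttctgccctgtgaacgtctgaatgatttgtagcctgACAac
Snora43, in Snhg7, chr2:26637848-26637974, minus strand: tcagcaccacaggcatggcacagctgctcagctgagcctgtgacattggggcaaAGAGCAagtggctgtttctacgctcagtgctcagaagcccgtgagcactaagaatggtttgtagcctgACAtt

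Snord22 (126 nt) was 1146 and 2414 FPKM in the untreated MycT libraries and 608 and 646 after doxycycline, without overlap; the log2 change was -1.41 (limma adjusted p = 0.120). In KrasT tumours it was 80.1, 0 and 35.3 FPKM untreated and 0, 44.3 and 76.5 treated, with no separation. The mean of its host Snhg1 was 12.7 times lower in treated MycT libraries. Snora43 was 127.1 and 192.3 FPKM in untreated MycT libraries and 60.0 and 40.9 treated, a log2 change of -1.64 (limma adjusted p = 0.0802). Snora17 was 38.0 and 123.1 untreated and 44.8 and 0 treated, which overlapped. Snora17 and Snora43 share a run of 14 bases at their 3′ ends, tttgtagcctgaca. Snord47 in Gas5, Snord87 in Snhg6, and Snora61 and Snord99 in Snhg12 were listed at 0 in all 10 libraries, and Snora24 in Snhg8 never reached 1 FPKM. Snora44 was above 0 in 1 library, at 128.0 FPKM in untreated MycT replicate 2. Snora16a was at 30.0 FPKM in that same library and at 29.2 and 10.1 in KrasT doxycycline replicates 1 and 2.

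Outside the 8 genes, Snora65, inside the ribosomal protein gene Rpl12, was the highest MycT row at 2996 and 3858 FPKM untreated and 135.9 and 185.5 treated. Of the rows above 0 in any library, 29 of 32 had a lower mean after doxycycline in MycT and 5 of 24 in KrasT. Many of these rows were above 0 in a single group of their model, which fixes their direction. The row counts are therefore a description and not a test. Of the genes that contain these rows, each counted once, 28 of 28 had a lower mean in MycT and 20 of 22 in KrasT, where Snhg7 and Eif4a2 did not. Over all tested genes the log2 change was negative for 48.4% in MycT and 54.7% in KrasT. Many of these containing genes are ribosomal protein genes, which are counted again in the lists below.

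Other genes of the pathway were taken from fixed lists. The MycT table's own fit called 0 genes of each list, so the MycT counts given are those of the joint fit, which called 12.3% of all genes lower; in KrasT 8.25% were called lower. The 8 core proteins of small nucleolar ribonucleoproteins (among them Fbl, the methyltransferase of the C/D class, and Dkc1, the pseudouridine synthase of the H/ACA class) had negative changes in both models, and 4 of 8 were called lower in KrasT. Nhp2 fell by 1.71 ± 0.23 (SE) on the log2 scale in KrasT (limma adjusted p = 0.0103) and Fbl fell by 1.07 ± 0.25 (0.0325). In MycT 0 of 8 were called in the table's own fit and 8 of 8 in the joint fit, with a median log2 change of -2.25. Nop56, a C/D core protein whose gene is itself a host, had a log2 change of -3.27 ± 0.33 (SE) in MycT, limma adjusted p = 0.0638. Of 13 assembly factors, 0 were called in KrasT (2 in the joint fit) and 8 in MycT in the joint fit. Of 14 nonsense-mediated decay factors, 3 were called lower in KrasT and 3 in MycT in the joint fit, with medians of -0.14 and -0.04. The KrasT calls included Magoh, at -1.31 ± 0.31 (SE, limma adjusted p = 0.0357), and Eif4a3, at -0.84 ± 0.21 (0.0417), which belong to the exon junction complex.

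Of the 8 other noncoding host genes tested, 1 was called in KrasT: Snhg9, at 9.22, 9.92 and 4.94 FPKM untreated and 0, 0 and 3.08 treated (limma adjusted p = 0.0376). It was not called in the joint fit (0.165). In MycT the joint fit called 4 of 8 lower, and the table's own fit called 0. Zfas1, listed as 1500012F01Rik, had the highest mean of them in both untreated groups, at 709, 183.2 and 303.9 FPKM in untreated KrasT and 38.6, 141.6 and 128.2 treated, without overlap (limma adjusted p = 0.0889). In MycT Zfas1 was 837 and 1116 FPKM untreated and 89.7 and 80.8 treated. Snhg4, Snhg10, Snhg15 (Gm11974), Snhg17 (9430008C03Rik) and Snhg20 (2810008D09Rik) were lower in MycT without overlap, as were 32.8% of all tested genes. Snhg9 overlapped in MycT, at 0 and 21.7 FPKM untreated and 5.93 and 0 treated. Snhg18 had a change of opposite sign there, at 1.42 and 12.1 FPKM untreated and 19.6 and 27.0 treated, a log2 change of 2.09 ± 0.86 (SE, limma adjusted p = 0.171). Rmrp and Dleu2, which host no small nucleolar RNA, were on the same list and are left out of these counts. Rmrp, the RNA of the enzyme that cuts the ribosomal RNA precursor, was highest in the same libraries as Rn45s, at 544 FPKM in KrasT doxycycline replicate 1 and 824 in MycT doxycycline replicate 2. Dleu2 had a log2 change of 1.54 ± 0.49 (SE) in KrasT, and Snhg11 stayed below 1 FPKM in every library.

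Among 38 protein-coding host genes, 21 were called lower and 0 higher in KrasT, with a median log2 change of -1.21. In MycT the joint fit called 32 lower, with a median of -2.15. Most of these 38 are ribosomal protein genes, which are counted again among those below. Nop56, Nop58 and Dkc1 are also among the core proteins. For the 79 cytosolic ribosomal protein genes tested in KrasT, 35 were called lower, with a median of -1.17, and in MycT the joint fit called 74 of 78 lower, with a median of -2.18. Rpl23 fell by 1.23 ± 0.23 (SE) on the log2 scale in KrasT, limma adjusted p = 0.0202. The 12 proliferation genes had a median of -1.20 in KrasT, with 4 called, and of -3.20 in MycT, with 12 called in the joint fit. The KrasT median of Gas5 and the 7 Snhg members (-0.86) lay nearer to all genes than that of the protein-coding hosts, which was a description and was not tested.

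The make-up of the tissue moved with these changes. The 10 fibroblast markers summed to 328 to 733 FPKM in untreated KrasT libraries and 4001 to 9278 after doxycycline, and to 37.3 to 459 and 1704 to 2460 in MycT. Of these 10, 8 were called higher in KrasT, against 8.46% of all genes, and 7 in MycT in the joint fit, against 8.11%. Endothelial markers summed to 17.4 to 33.5 FPKM untreated and 81.3 to 174 treated in KrasT, and to 13.1 to 36.6 and 67.2 to 130 in MycT. Macrophage markers summed to 175 to 808 and 677 to 3459 FPKM in KrasT, which overlapped, and to 479 to 782 and 1068 to 2441 in MycT. The 8 epithelial markers, the check of the labelled tumour, were all detected. They summed to 2356 to 18526 FPKM untreated and 278 to 1708 treated in KrasT, and to 496 to 1566 and 903 to 1837 in MycT. All 8 changes were negative in KrasT, but only 2, Krt8 and Krt18, were called or lower without overlap, against 8.25% of genes called lower. In MycT 2 of 8 changes were negative and 0 were called, also in the joint fit. Lymphocyte and NK, skeletal muscle, adipocyte and acinar marker sums were also higher in treated group means. Muscle sums in KrasT and acinar sums in KrasT and MycT overlapped between groups. The treated muscle and acinar sums also varied widely between libraries, with MycT muscle at 8.83 and 6423 FPKM. No muscle or acinar marker was called. In these bulk tumours fewer cells of a type and less host RNA per cell cannot be told apart, and the part of tissue make-up in the host gene changes was not tested.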

How the data were processed

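RNA-seq values came from the authors' deposited FPKM tables, 1 per model. Per the labels' protocols, total RNA of frozen tumours went through a TruSeq RNA kit; per the submitters' processing notes, cutadapt, TopHat and the mm9 build were used. Not given in the sources used here are the program and gene models that gave the FPKM and whether strand was used. The 27 rows with date-like symbols were left out of each table. Columns were matched by animal number; 1 untreated MycT column matched no label number and entered as an unnumbered replicate.

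Genes were kept where 3 KrasT or 2 MycT libraries reached an FPKM of 1, and were tested on log2(FPKM + 1), a pseudocount that understates changes of low genes. The test was two-sided, by limma (version 3.58.1, R 4.3.3) with a trended eBayes prior. Models were compared by an interaction term over both tables. Nothing says which tumours came from separate transplanted cultures, so p-values measure the spread between these tumours. Exact permutation tests used scipy 1.17.1; steps were tested on simulated data, where the joint fit made more false MycT calls than its threshold allows once each model kept its own spread. Figures used matplotlib 3.10.9. Alternatives covered pseudocount, filter, scaling, the fit and leaving out libraries. Named genes are the members, the other noncoding hosts, small RNAs inside members plus the highest rows, and up to 2 called rises and 2 called falls per list or the 2 of smallest p. Members, lists and tests were chosen with earlier results of these data known. Windows and small RNA sequences are of GRCm38, not of the authors' build. Some results are not reported here.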

Additional observations from a re-analysis of the deposited data

How the results depend on the processing

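The KrasT count of called members (1) was 2 in the joint fit and ranged from 0 to 2 when 1 library was left out. The MycT count (0) was 3 with FPKM rescaled to TPM, where Snhg1, Snhg3 and Snhg6 passed and 31.6% of all genes were called (3833 higher, 227 lower), and 7 in the joint fit. The count for the difference between models (0) ranged from 0 to 2 when 1 library was left out. Rescaling to TPM shifted the median of all genes by 0.63 in KrasT and 1.04 in MycT on the log2 scale, and changed the KrasT split of called genes from 1074 higher and 1047 lower to 2558 and 232. Under it 5 of 8 members were negative in KrasT and 8 of 8 in MycT, and 7 and 8 lay below the median of all genes; with quantile normalization 5 of 8 did in KrasT. All 8 members were negative in MycT under each alternative run. KrasT Gas5 turned to 0.45 with that scaling, 0.067 with quantile normalization, 0.21 without untreated replicate 1 and 0.25 without doxycycline replicate 1, which is also the fit without libraries above 10000 FPKM of Rn45s; leaving out 1 library gave -0.53 to 0.25. KrasT Snhg12 turned to 0.30 with that scaling, 0.059 with quantile normalization and 0.059 without untreated replicate 1 (leave-one-out range -0.78 to 0.059). KrasT Snhg7 turned to -0.15, -0.05 and -0.0048 without untreated replicate 2, doxycycline replicate 2 and doxycycline replicate 3 (range -0.15 to 0.89). The difference for Snhg6 turned to 0.069 with that scaling and 0.018 without the unnumbered untreated MycT library (range -0.97 to 0.018). The causes were not tested. Counting small nucleolar RNA rows at FPKM of at least 1, chosen after seeing the data, gave a mean difference of 3 rows in KrasT (exact permutation p = 0.5) and -15 in MycT (0.3333). No paired analysis was possible because each tumour has its own animal number and no number is shared between groups. With 2 MycT libraries a group and no read counts, depth limits the low rows most.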
